A study of Mus musculus with 12 samples.

Results

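The antioxidant defence genes described here are 10 genes chosen by name, Gpx1, Gpx4, Prdx1, Prdx2, Cat, Sod1, Sod2, Hmox1, Nqo1 and Txnrd1, out of 49315 gene identifiers in the count table. The rule used symbols and no measured value, although the list was drawn up with earlier results of these data known. Each symbol matched 1 identifier of the mouse GRCm38 annotation, and all 10 genes passed the filter on low counts in every comparison.

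Cells remove reactive oxygen species in steps. Superoxide dismutases turn superoxide into hydrogen peroxide, and catalase, the glutathione peroxidases and the peroxiredoxins remove the peroxide. The peroxidases are recharged by glutathione and thioredoxin, which draw on NADPH, and the transcription factor Nrf2 (Nfe2l2), held back by Keap1, switches many of these genes on through antioxidant response elements in DNA. In T cells the balance of oxidants shapes receptor signalling and survival, and several of the same enzymes are abundant in red cells, which carry oxygen and haem.

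RNASeq was performed on T cells taken from the spleen by magnetic negative selection, a method that labels and removes other cells and leaves T cells untouched. The study asked how angiotensin II (Ang II), a peptide hormone that raises blood pressure, affects T cells with and without the microRNA miR-214. The 4 groups held 3 libraries each, made from male mice that were 12 weeks old when the infusion began. WT sham mice were wild-type animals with a minipump that delivered vehicle, and WT Ang II mice received Ang II at 490 ng/kg per day, both for 14 days. The miR-214-/- sham and miR-214-/- Ang II mice had the same infusions and lacked miR-214 in the whole animal, so the deletion was not limited to T cells. No label names the strain of these mice, and nothing in the labels says that the replicate numbers mark a shared litter or day. P-values measure the spread between these libraries.

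Library totals were between 21126874 and 29605988 counts. The Mir214 gene had 0 counts in all 12 libraries, which allows up to 3 counts in each, and its host transcript Dnm3os had 1 count in 1 library, labelled WT Ang II, so these counts are no check of the genotype labels. The T cell markers Cd3d and Cd3e were high everywhere, at 191 to 371 and 284 to 460 counts per 1000000 counts (CPM, library totals scaled by TMM) respectively. Libraries differed in markers of other cells. The summed level of 18 red-cell precursor markers was 410 to 578 CPM in WT sham, 1808 to 6010 in WT Ang II, 335 to 816 in miR-214-/- sham and 644 to 4814 in miR-214-/- Ang II. In the same order, 14 granulocyte markers summed to 217 to 274, 1232 to 3689, 258 to 1054 and 679 to 3334 CPM. Of the defining markers, Hbb-bs and Klf1 for red-cell precursors and Elane, S100a8 and Ly6g for granulocytes were above 0 in every library. In bulk libraries, a change in the number of cells of a type and a change in RNA per cell cannot be told apart.

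Promoters of 3 members held a match to the core of the antioxidant response element, TGACNNNGC, and are shown because Nrf2 is the textbook regulator of these genes. Promoters are RefSeq windows on GRCm38.p6, 250 bases before to 50 after a start, printed 5′ to 3′ on the gene's strand, with the match in capitals. All 3 matches lie on the opposite strand, so the capitals read as its reverse complement.
Prdx1, chr4:116685349-116685648, plus strand: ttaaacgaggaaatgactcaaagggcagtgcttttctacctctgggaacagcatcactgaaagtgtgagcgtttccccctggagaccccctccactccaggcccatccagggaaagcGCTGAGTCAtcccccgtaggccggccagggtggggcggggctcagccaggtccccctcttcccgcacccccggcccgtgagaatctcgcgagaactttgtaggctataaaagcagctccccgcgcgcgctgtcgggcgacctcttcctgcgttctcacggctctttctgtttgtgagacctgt
Sod1, chr16:90220512-90220811, plus strand: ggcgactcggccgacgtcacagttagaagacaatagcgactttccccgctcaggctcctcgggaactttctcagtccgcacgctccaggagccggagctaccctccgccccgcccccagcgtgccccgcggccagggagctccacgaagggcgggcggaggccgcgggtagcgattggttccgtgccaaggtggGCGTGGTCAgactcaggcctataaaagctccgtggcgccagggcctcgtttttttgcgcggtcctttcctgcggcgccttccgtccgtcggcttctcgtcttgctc
Txnrd1, a start inside the gene, chr10:82858956-82859255, plus strand: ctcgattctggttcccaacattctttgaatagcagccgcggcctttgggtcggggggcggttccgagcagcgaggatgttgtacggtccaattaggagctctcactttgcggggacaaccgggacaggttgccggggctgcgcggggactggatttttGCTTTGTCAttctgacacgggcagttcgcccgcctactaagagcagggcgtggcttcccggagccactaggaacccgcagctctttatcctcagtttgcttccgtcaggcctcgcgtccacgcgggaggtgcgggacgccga
The match in Prdx1 read TGACTCAGC and lay 133 bases before the start. Sod1 had TGACCACGC at 56 bases and Txnrd1 TGACAAAGC at 92 bases before the start. The core was searched on both strands and was in 4071 of 32851 promoters (12.4%), while the full TGACTCAGC of Prdx1 was in 149 (0.454%). The windows were 14, from 9 members, and the other 11 had no core match, among them those of Gpx1, Prdx2 and Nqo1. Hmox1 had no entry. The letters AGATAA, a form of the site bound by GATA factors, were in 11.2% of all promoters and in none of the 14 windows. Other forms of that site, such as TGATAA, were not searched. A match is a description of the letters, and no match says only that they are not in that window.

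Sites for miR-214 are shown because the deletion removes it. Bases 2 to 8 of miR-214-3p, its seed, stand in capitals below. The capitals in the 4 gene sequences mark CCTGCTG, the reverse complement of that seed, in an annotated 3′ UTR. The site lay in 3 annotated transcripts of Gpx4 and in 1 each of Prdx1, Sod2 and Cat.
miR-214-3p, chr1:162223438-162223459, plus strand: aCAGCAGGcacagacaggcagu
Gpx4, site chr10:80056317-80056323, plus strand: ctgaaaaccagCCTGCTGgtggggcagtc
Prdx1, site chr4:116700647-116700653, plus strand: cagacccaagcCCTGCTGtcctctcagcc
Sod2, site chr17:13019915-13019921, plus strand: tgaagtaagtaCCTGCTGcaaaagcataa
Cat, site chr2:103453870-103453876, minus strand: tctttggatggCCTGCTGgcgcactgaga
The site was in 4 of 10 members and in 4245 of 20890 genes with an annotated 3′ UTR (20.3%), and no test was made of these shares. None of these 4 members passed between the genotypes in the sham libraries, where edgeR called 0.0251% of 15913 genes. The log2 difference, miR-214-/- against WT, was 0.04 for Cat (adjusted p = 0.939 from edgeR), -0.0048 for Gpx4 (adjusted p = 0.994 from edgeR), 0.06 for Prdx1 (adjusted p = 0.919 from edgeR) and 0.0045 for Sod2 (adjusted p = 0.994 from edgeR). In the Ang II libraries the differences were -0.09, -0.06, -0.02 and -0.05 in the same order. None passed there either, where edgeR called 0% of 16215 genes. An effect of the sites was not tested.

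Levels of different members were compared per kilobase of exon. In WT sham libraries Gpx1, a selenium-dependent peroxidase of the cytosol, was highest at 112 ± 5.59 CPM per kb (SD, n = 3), above every library of the next gene, Gpx4 at 47.5 ± 4.38. Gpx4, which reduces lipid peroxides in membranes, was followed by Hmox1, Prdx1, Cat, Prdx2 and Sod1, between 42.1 and 29.6 CPM per kb. Within that run only Prdx1 and Cat were neighbours whose libraries did not overlap. Txnrd1 (11.6), Sod2 (5.14) and Nqo1 (0.921) came last and were each separate from their neighbours. In WT Ang II libraries Gpx1 remained highest at 298 ± 29.1 CPM per kb, Prdx2 was next at 154 ± 65.4, and Nqo1 at 4.95 ± 2.18 overlapped Sod2 at 5.66 ± 0.427. Sod2 is divided by an exon length of 10008 bases over all its transcripts, which lowers its value per kb.

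**Figure D1:**
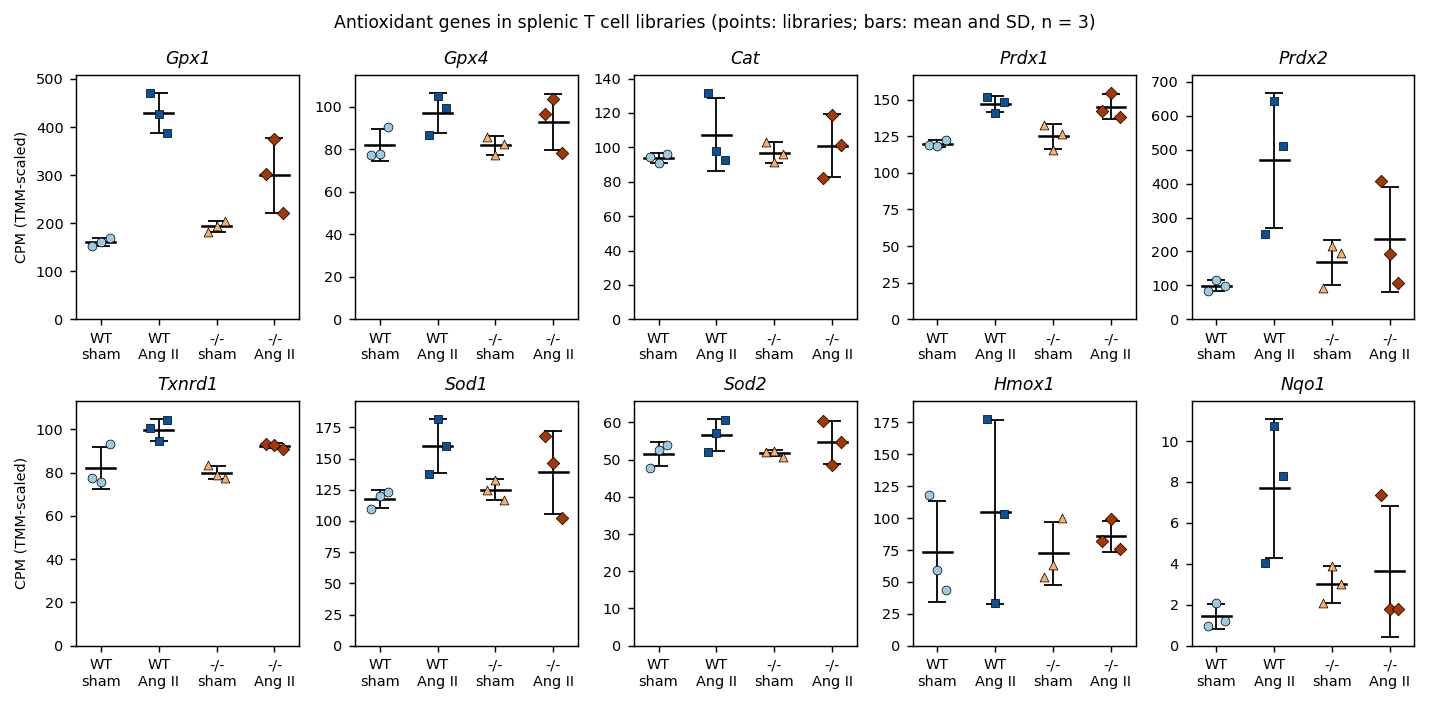
Level of each member in CPM (vertical axis, from 0) in the 12 libraries by group, with points for libraries and bars for the mean and SD of 3. The 3 WT Ang II libraries lie above all WT sham libraries for Gpx1, Prdx1, Prdx2, Sod1, Nqo1 and Txnrd1, and miR-214-/- Ang II libraries are spread widely for Prdx2 (107 to 406 CPM) and Nqo1 (1.77 to 7.34 CPM).

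In the WT libraries 5 of the 10 members rose with Ang II, and none fell. Gpx1, Prdx2 and Nqo1 rose by over 2-fold, and Prdx1 and Sod1 rose by less. The edgeR quasi-likelihood test on all 16012 genes called 11.7% of genes higher and 7.06% lower, and 7.01% higher by over 2-fold, against 5, 0 and 3 of the 10 members. Every WT Ang II library was above every WT sham library for 6 members, the 5 that passed and Txnrd1, and for 19.1% of all genes tested. All 10 members had a positive log2 fold change, with a median of 0.39 against -0.02 over all genes tested. DESeq2 also called 5 members, among 3740 genes against 3009 in edgeR.

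Gpx1 had 153, 161 and 169 CPM in the WT sham libraries and 472, 427 and 388 CPM in the WT Ang II libraries. Its groups were far apart, with little spread in either. The mean went from 161 ± 8.05 to 429 ± 41.9 CPM (SD, n = 3), a log2 fold change of 1.43 ± 0.0875 (SE, adjusted p = 0.000788 from edgeR).

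The peroxiredoxins Prdx1 and Prdx2 reduce peroxide with a reactive cysteine and are recharged by thioredoxin. Prdx1, the form found in most cells, had 119, 118 and 123 CPM in WT sham and 152, 141 and 148 CPM in WT Ang II. The rise was small and the groups were apart, with a log2 fold change of 0.32 ± 0.0617 (SE, adjusted p = 0.017 from edgeR). Prdx2, which is very abundant in red cells, had 83.2, 117 and 98.6 CPM in WT sham and 251, 643 and 511 CPM in WT Ang II. All WT Ang II libraries were above sham, and they differed widely among themselves. Its log2 fold change was 2.25 ± 0.328 (SE, adjusted p = 0.00733 from edgeR). Exons of Prdx2 overlap those of Rnaseh2a and Junb on the opposite strand over 350 of 3050 bases, and the strand setting of the counting is not given in the sources used here, so reads there cannot be assigned with certainty. In WT, Rnaseh2a rose by 0.58 (adjusted p = 0.0445 from edgeR) while Junb fell by 0.97 (adjusted p = 0.00613 from edgeR) on the log2 scale.

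Sod1, the copper and zinc superoxide dismutase of the cytosol, had 110, 120 and 123 CPM in WT sham and 138, 181 and 160.5 CPM in WT Ang II. The highest sham library lay just under the lowest Ang II library. The log2 fold change was 0.46 ± 0.102 (SE, adjusted p = 0.0241 from edgeR), and the call was kept in 1 of 6 fits that each left out a library. Nqo1, a quinone reductase and a standard target of Nrf2, was scarce, with 0.96, 2.1 and 1.23 CPM in WT sham and 4.04, 10.7 and 8.3 CPM in WT Ang II. These levels rest on 22 to 53 counts per sham library and 115 to 301 per Ang II library. Nqo1 rose by a log2 fold change of 2.43 ± 0.442 (SE, adjusted p = 0.0137 from edgeR), the largest among the members. Its call and that of Prdx1 were kept in 3 of the 6 fits without a library, while Gpx1 and Prdx2 passed in all 6. The members past the threshold numbered 2 without WT sham replicate 1, 3 without WT sham replicate 2 and 2 without WT Ang II replicate 3, in fits where the calls over all genes fell from 3009 to 1139, 1587 and 946.

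The other 5 members did not pass in WT. Txnrd1, the cytosolic reductase that recharges thioredoxin, had 75.5 to 93.4 CPM in WT sham and 94.5 to 104 CPM in WT Ang II, without overlap (log2 fold change 0.30, adjusted p = 0.0667 from edgeR). Gpx4 had 77.5 to 90.6 and 86.8 to 105 CPM (0.27, adjusted p = 0.0867 from edgeR). Cat, the peroxide-splitting enzyme of peroxisomes, and Sod2, the mitochondrial manganese dismutase, had log2 fold changes of 0.22 and 0.16 with overlapping groups (adjusted p = 0.287 and 0.223 from edgeR). Hmox1, which breaks down haem, varied widely, from 43.8 to 118 CPM in WT sham and from 33.8 to 178 CPM in WT Ang II. Its log2 fold change of 0.54 had an SE of 0.602 and an adjusted p of 0.562 from edgeR, and it was -0.09 without WT Ang II replicate 1.

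**Figure D2:**
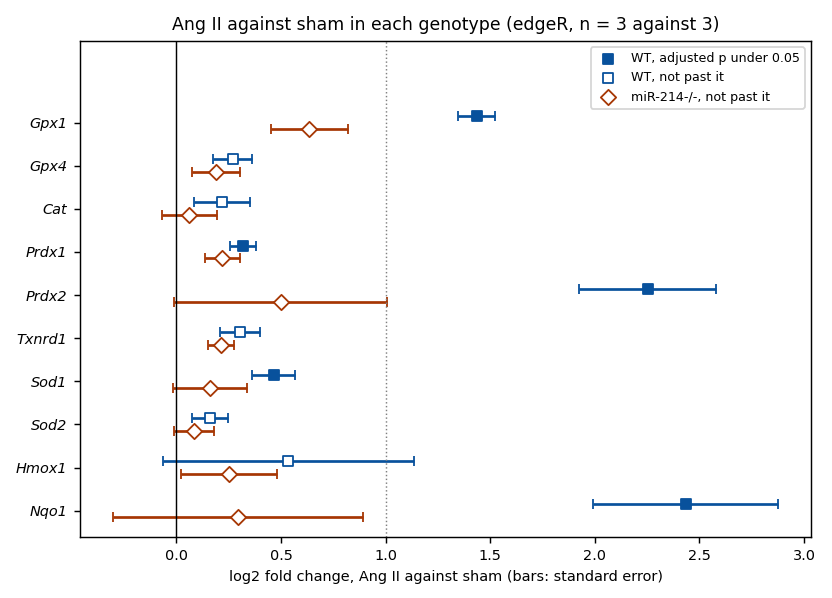
Log2 fold change of each member, Ang II against sham (horizontal axis; bars are standard errors), in WT (squares) and miR-214-/- (diamonds), each from 3 against 3 libraries, with filled symbols for an adjusted p under 0.05 and a dotted line at 2-fold. Gpx1, Prdx2 and Nqo1 lie right of the dotted line in WT, and no diamond is filled.

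In the miR-214-/- libraries no member passed for Ang II against sham in edgeR, and 0% of the 15937 genes tested did, although 1939 genes had an unadjusted p under 0.05. Of the members, 3 did, Gpx1, Prdx1 and Txnrd1, which were also the 3 members without overlap between the groups, against 8.86% of all genes whose Ang II libraries all lay above sham. All 10 log2 fold changes were positive, with a median of 0.22 against 0.03 over all genes. DESeq2 called 277 genes and 1 member, Gpx1, at a log2 fold change of 0.63 (adjusted p = 0.0342 from DESeq2).

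Gpx1 had 182, 195 and 205 CPM in miR-214-/- sham and 301, 376 and 221 CPM in miR-214-/- Ang II. The Ang II libraries were all above sham but replicate 3 was only slightly so. The log2 fold change was 0.64 ± 0.185 (SE, adjusted p = 0.304 from edgeR). Prdx1 had 132, 116 and 127 CPM in miR-214-/- sham and 142, 155 and 138 CPM in miR-214-/- Ang II. These groups were apart by a small step, with a log2 fold change of 0.22 and an adjusted p of 0.384 from edgeR. Prdx2 had 92.5, 216 and 196 CPM in miR-214-/- sham and 406, 193 and 107 CPM in miR-214-/- Ang II. One Ang II library, replicate 1, was high, and the other two lay within the range of sham. Its log2 fold change of 0.50 had an SE of 0.508 and an adjusted p of 0.71 from edgeR, and it was -0.16 without that library. Sod1 had 125, 133 and 116 CPM in miR-214-/- sham and 168, 146 and 102 CPM in miR-214-/- Ang II, where replicate 3 was the lowest of all 12 libraries (log2 fold change 0.16, adjusted p = 0.73 from edgeR). Nqo1 had 2.08, 3.9 and 3.01 CPM in sham and 7.34, 1.77 and 1.79 CPM under Ang II, with replicate 1 high, as for Prdx2, and the other two below every sham library. Its log2 fold change was 0.29 with an SE of 0.597 (adjusted p = 0.861 from edgeR) and -0.75 without that library.

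No member differed between genotypes at an adjusted p under 0.05 in either treatment. In sham, Gpx1 had a log2 difference, miR-214-/- against WT, of 0.26 ± 0.0677 (SE, adjusted p = 0.701 from edgeR). Prdx2 and Nqo1 differed by 0.76 and 1.05 with overlapping groups (adjusted p = 0.701 for both from edgeR). These 3 members had an unadjusted p under 0.05. The edgeR test called 0.0251% of 15913 genes in sham, 1061 genes had an unadjusted p under 0.05, and DESeq2 called 94 genes and 0 members. Without miR-214-/- sham replicate 1, whose Prdx2 level of 92.5 CPM was the lowest of its group, Prdx2 passed at 1.05 (adjusted p = 0.0486 from edgeR), in a fit that called 35 genes against 4 with every library. Under Ang II, all 10 members had negative log2 differences, miR-214-/- against WT, with a median of -0.15 against 0.00097 over all genes. Gpx1 differed by -0.51 (adjusted p = 0.569 from edgeR) and Txnrd1 by -0.11 (adjusted p = 0.614 from edgeR). Prdx2 at -0.98 and Nqo1 at -1.07 had overlapping groups (adjusted p = 0.582 and 0.59 from edgeR). The edgeR test called 0% of 16215 genes there, 1388 had an unadjusted p under 0.05, among them 1 member, Gpx1, and DESeq2 called 33 genes and 0 members.

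The interaction of Ang II and genotype asks whether the response to Ang II differed between WT and miR-214-/-. For Gpx1 the WT response was 1.43 and the miR-214-/- response 0.64, and the fitted difference was -0.78 ± 0.219 on the log2 scale (SE, adjusted p = 0.213 from edgeR). For Prdx2 the difference was -1.75 ± 0.671 (SE, adjusted p = 0.28 from edgeR) and for Nqo1 -2.14 ± 0.812 (SE, adjusted p = 0.277 from edgeR). No member passed, against 0.00596% of 16770 genes, and these 3 were the members with an unadjusted p under 0.05, as were 2483 genes. All 10 differences were negative, with a median of -0.20 against 0.01 over all genes. DESeq2 called Gpx1 (-0.81, adjusted p = 0.0241 from DESeq2) among 444 genes. Without miR-214-/- Ang II replicate 1, the library with high Prdx2 and Nqo1, both of these genes passed in edgeR, at -2.40 (adjusted p = 0.0439) and -3.16 (adjusted p = 0.0234), in a fit that called 919 genes in all against 1 with every library. The comparisons share libraries, since WT sham enters the WT response, the sham comparison and the interaction, so their values are not independent.

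The other genes of the pathway were 52 in 7 lists by role, of which 48 were tested. In WT, 23 rose with Ang II, 10 of them by over 2-fold, and 1 fell, against 11.7%, 7.01% and 7.06% of all genes tested. The median log2 fold change of the listed genes was 0.60 against -0.02 over all genes. The 24 that passed became 13 without WT sham replicate 1, 14 without WT sham replicate 3 and 13 without WT Ang II replicate 3, where all calls numbered 1139, 1381 and 946 against 3009, and DESeq2 called 28 of the listed genes. Among the glutathione genes 7 of 11 tested rose and the median was 1.12. The largest rise was that of Mgst3, a microsomal glutathione transferase and peroxidase, at 2.66 (adjusted p = 0.00507 from edgeR). Of 5 tested genes that supply NADPH, 4 rose, led by G6pdx, the entry enzyme of the pentose phosphate pathway, at 0.89 (adjusted p = 0.00836 from edgeR). Of 10 thioredoxin and glutaredoxin genes 4 rose, led by the mitochondrial reductase Txnrd2 at 1.22 (adjusted p = 0.0153 from edgeR). Of 6 other peroxidases and dismutases tested 2 rose, with Prdx4, the peroxiredoxin of the endoplasmic reticulum, at 1.22 (adjusted p = 0.00418 from edgeR).

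Of 4 genes of haem and quinone reduction 3 rose, led by Blvrb, a biliverdin reductase abundant in red cells, at 2.32 (adjusted p = 0.00493 from edgeR). Of 5 genes that make selenocysteine, the amino acid at the active site of Gpx1, Gpx4 and Txnrd1, only Sephs2 rose, at 0.44 (adjusted p = 0.0277 from edgeR). Among 7 Nrf2 regulators the median was 0.02, and Nfe2l2 itself rose by 0.35 (adjusted p = 0.0339 from edgeR) and its partner Mafg by 0.81 (adjusted p = 0.00128 from edgeR). The adaptor Sqstm1 fell by 0.24 (adjusted p = 0.0494 from edgeR). Keap1 and Bach1, the repressors of this system, had log2 fold changes of 0.03 and 0.01 (adjusted p = 0.844 and 0.941 from edgeR). None of the 48 genes passed in edgeR in the other 4 comparisons. At an unadjusted p under 0.05 there were 9 for Ang II in miR-214-/-, 7 between sham groups, 3 between Ang II groups and 17 for the interaction. Over all genes tested, the numbers in the same order were 1939 of 15937, 1061 of 15913, 1388 of 16215 and 2483 of 16770. DESeq2 called 2, 0, 0 and 0 of the listed genes. For the interaction, 8 passed in edgeR once miR-214-/- Ang II replicate 1 was left out, among 919 genes called in that fit. In miR-214-/- the medians of the 7 lists were between -0.02 and 0.37.

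**Figure D3:**
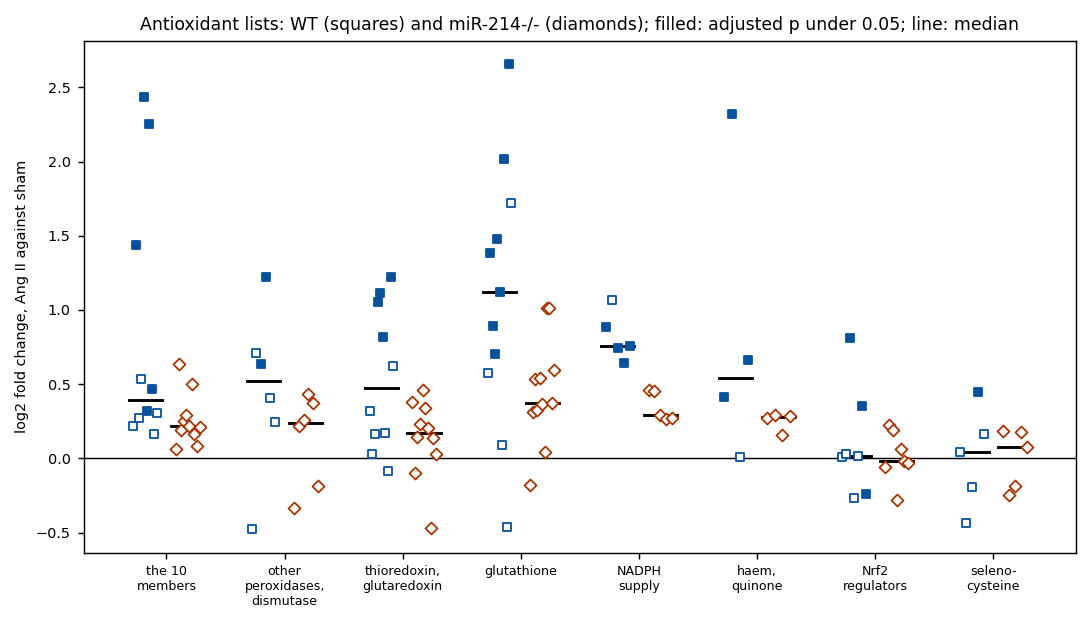
Log2 fold change, Ang II against sham (vertical axis), of every tested gene of the 10 members and the 7 lists of other antioxidant genes, in WT (squares) and miR-214-/- (diamonds), with filled symbols for an adjusted p under 0.05 and a line at the list's median. The glutathione genes have the highest median in WT, 1.12, and 0.37 in miR-214-/-, where no symbol is filled.

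Levels of red-cell precursor markers moved with several members. Over all genes tested in WT, 11.7% rose with Ang II and 7.06% fell. Of the lists, 13 of 18 tested red-cell precursor markers, 14 of 14 granulocyte markers and 18 of 18 cell cycle genes rose, while 12 of 16 T cell markers fell. None of these passed for Ang II in miR-214-/- in edgeR, where 5, 3, 0 and 2 of them in the same order had an unadjusted p under 0.05. Klf1, a transcription factor that defines red-cell precursors, had 8.29, 23.7 and 11 CPM in WT sham, 47.1, 172 and 137 in WT Ang II, 12.3, 58.6 and 51.2 in miR-214-/- sham and 97.6, 21.3 and 11.6 in miR-214-/- Ang II. The 6 libraries with the highest Prdx2 were the 6 with the highest Klf1, and the same held for Nqo1. These were also the 6 libraries with the highest sum of cell cycle genes, and they include all 3 WT Ang II libraries. With the summed red-cell precursor markers, each of Prdx2, Nqo1, Gpx1, Gpx4, Prdx1 and Txnrd1 shared 5 of its 6 highest libraries. Sod1 shared 6, Hmox1 4, and Cat and Sod2 3 each. Prdx2 and Nqo1 also shared 5 each with the sum of B cell markers. Such overlaps were not counted over all genes. Markers of the red-cell precursor list did not share 1 order. Between miR-214-/- Ang II replicates 1 and 2, Gata1 went from 46.4 to 12.8 CPM and Hbb-bs from 113 to 1977 CPM.

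Gpx1 shared 4 of its 6 highest libraries with Klf1. With the red-cell precursor sum and the granulocyte sum it shared 5 each, as did Prdx2, Nqo1, Gpx4, Prdx1 and Txnrd1. The highest miR-214-/- library for Gpx1 was Ang II replicate 2 at 376 CPM, with red-cell precursor and granulocyte sums of 4814 and 3334 CPM. These sums were 6010 and 3689 CPM in WT Ang II replicate 1, where Gpx1 was highest at 472 CPM. In WT Ang II replicates 2 and 3, Gpx1 was above that miR-214-/- library, at 427 and 388 CPM. The sums were lower than there, 3265 and 1232 CPM in replicate 2 and 1808 and 1745.5 CPM in replicate 3. Sums are weighted to the most abundant markers, and Hbb-bs alone had 1977 CPM in the miR-214-/- library. By the mean of log2 (CPM + 1) over the red-cell precursor list, these WT libraries were higher, at 6.98 and 6.18 against 5.95. Over the granulocyte list they were lower, at 5.60 and 6.15 against 6.63. Hmox1 was highest in WT Ang II replicate 1 and lowest in WT Ang II replicate 2, which were also the libraries with the highest and lowest sums of 13 macrophage markers, 1454 and 200.3 CPM. Of the 6 libraries with the highest Hmox1, 4 were among the 6 highest for macrophage markers, 5 for granulocyte markers and 4 for red-cell precursor markers. In WT, edgeR called 0 of 13 macrophage, 0 of 11 B cell and 0 of 3 tested NK cell markers (0, 1 and 0 at an unadjusted p under 0.05). There 4 of 8 megakaryocyte markers rose, against 11.7% of all genes tested. The part of other cells in the members' changes was not tested.

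**Figure D4:**
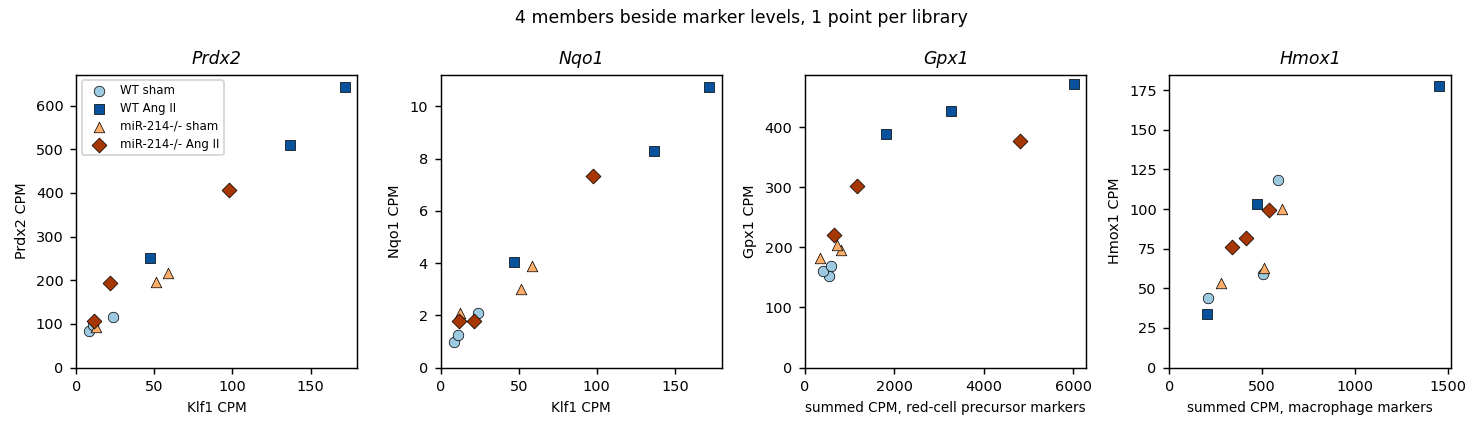
Level of 4 members in CPM (vertical axes, from 0) beside marker levels in the same 12 libraries, which are Klf1 for Prdx2 and Nqo1, summed red-cell precursor markers for Gpx1 and summed macrophage markers for Hmox1 (horizontal axes, CPM, from 0), with 1 point per library. The miR-214-/- Ang II library with the highest Klf1, 97.6 CPM, also has the highest Prdx2 and Nqo1 of its group, 406 and 7.34 CPM. Its summed red-cell precursor markers were 1171 CPM, below the 4814 CPM of replicate 2 of that group.

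The genes nearest to 9 members by Pearson correlation of log2 CPM over the 12 libraries are given as a description, since all points share the group structure and 9769 genes were searched. Prdx2 was nearest to Mgst3, Abcb10 and Pheta2 (0.994 to 0.991), where Abcb10 is a mitochondrial transporter used in haem synthesis. Gpx1 was nearest to Fech, the last enzyme of haem synthesis, Taldo1, an enzyme of the pentose phosphate pathway, and Vrk2 (0.98 to 0.977). Nqo1 was nearest to Itga5, Hmgb3 and Samd14 (0.989 to 0.988), and Sod1 to Svbp, Mrps36 and Pebp1 (0.981 to 0.978).

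Prdx1 was nearest to Cmpk2, Dstn and G6pdx (0.982 to 0.96), and Hmox1 to Igf1, Ptgs1 and the macrophage marker Cd5l (0.956 to 0.935). Gpx4 was nearest to Uqcrc2, Serbp1 and Atp5o (0.955 to 0.951). The nearest genes of Txnrd1 were Eif3a, Bri3bp and Tmem165 (0.967 to 0.937), and those of Cat were Fam220a, Eif4e3 and Adipor1 (0.93 to 0.925). Among the members themselves, Prdx2 and Nqo1 were most alike (0.953), then Prdx2 and Sod1 (0.892) and Gpx1 and Prdx1 (0.89), and Cat and Sod2 had the lowest value (-0.45).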

How the data were processed

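Raw read counts per gene for 12 libraries were used, as deposited by the authors without normalization. Per the study's methods and labels, the authors made oligo(dT) stranded libraries, trimmed reads with Trimmomatic, mapped them to GRCm38 with STAR and counted unique exonic reads with featureCounts (Subread 1.5.2). The strand setting and the annotation release are not given in the sources used here, and reads that map to several places were left out, which leaves genes with named near-identical copies (Gpx4, Prdx2) uncertain. Of 49315 identifiers, 49056 matched GENCODE symbols on GRCm38. Of 19 red-cell precursor markers 18 matched. Totals were between 21126874 and 29605988 counts, and counting limits cover counting error only. No 2 libraries of a group were identical.

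Each comparison was fitted on the whole table in R 4.3.3 with edgeR 4.0.16 (filterByExpr, TMM, quasi-likelihood test, two-sided) and Benjamini-Hochberg adjustment over all genes tested. Pairs of groups were fitted alone and the interaction over all 12 libraries with both main effects. A gene passed at an adjusted p under 0.05. CPM were scaled by TMM, and log2 CPM used a prior count of 2. The procedure was checked on simulated data. Alternatives were DESeq2 1.42.0 (the study's tool), RLE and library-size scaling, dropping the filter, requiring 10 counts in each library, a replicate block, the adjusted-deviance fit, a single fit and leaving out each library.

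The members, lists and rules were chosen with earlier results of these data known. All members were named, with every library's value for those that passed in at least 1 of 5 comparisons. From each other antioxidant list the largest rise and largest fall that passed were named, with Nfe2l2, Keap1 and Bach1, the defining markers and the 3 nearest genes of each member with a mean log2 CPM above 3. A few named by these rules are not reported here.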

Additional observations from a re-analysis of the deposited data

How the results depend on the processing

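In WT, Gpx1 and Prdx2 passed under all 14 alternatives, Prdx1 and Nqo1 under 11 and Sod1 under 8, while Txnrd1 passed under 4 and Gpx4 under 1. The causes of these changes were not tested, beyond the smaller number of libraries in fits that left one out. Leaving out a library gave 2 to 6 members and 13 to 25 other antioxidant genes in WT, 0 to 1 members between sham groups, and 0 to 2 members and 0 to 8 other antioxidant genes for the interaction. Over all genes it gave 946 to 3590 in WT and up to 919 for the interaction. DESeq2 called 1 member and 2 other antioxidant genes in miR-214-/-, and 1 member for the interaction. The main fits did not pair libraries by replicate number. Deviations from the group mean in libraries of the same number had correlations of -0.70 to 0.43. Libraries of different numbers were not compared in this way, so these values cannot show whether a litter or day was shared. With the replicate block, 6 members and 2381 genes passed in WT, and log2 fold changes reversed for Nqo1 in miR-214-/- (-0.050) and Hmox1 in sham (0.042). Gpx4 in sham was 0.028 under library-size scaling, 0.0098 without a filter and 0.00021 in the single fit. Without 1 library, other reversals were in members that did not pass. Their ranges were -0.091 to 1.05 for Hmox1 in WT. In miR-214-/- they were -0.16 to 0.83 for Prdx2, -0.0063 to 0.33 for Sod1, -0.00045 to 0.16 for Sod2, -0.75 to 0.61 for Nqo1 and -0.078 to 0.18 for Cat. In sham they were -0.041 to 0.038 for Sod2, -0.34 to 0.49 for Hmox1, -0.039 to 0.072 for Gpx4, -0.096 to 0.057 for Txnrd1 and -0.0041 to 0.088 for Cat. Under Ang II they were -0.065 to 0.021 for Prdx1, -0.22 to 0.095 for Cat, -0.72 to 0.33 for Hmox1, -0.13 to 0.027 for Sod2 and -0.15 to 0.052 for Gpx4. For the interaction they were -0.28 to 0.037 for Cat, -0.79 to 0.35 for Hmox1, -0.14 to 0.013 for Sod2 and -0.15 to 0.045 for Gpx4. Depth limits Nqo1 most, with 22 to 301 counts per library.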
